A study of Mus musculus with 21 samples.

Results

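CD4+ T cells recovered 24 h after immunisation with 80 µg of peptide were compared with those recovered 24 h after 0.8 µg, using 6 of the 21 libraries of a time course in mice. The 3 libraries of each dose were chosen by their labelled dose and time, and every gene measured in them was considered. All mice of the series carried the Tg4 transgenic T cell receptor, which recognises a peptide of myelin basic protein (MBP), together with the Nr4a3-Tocky and Tiger alleles. In Nr4a3-Tocky mice a fluorescent Timer protein, made as a blue form that matures to a longer-lived red form, is expressed under the control of Nr4a3, and Tiger is a green reporter of Il10. The 6 mice had received the [4Y] variant of the MBP peptide under the skin, with no adjuvant, and T cells without the blue form but with the red form (Blue-Red+) were sorted from the spleen. By the study's use of the reporter, such cells had signalled through the receptor earlier and no longer did so. A control group of 3 mice of the same genotype was not immunised, and further groups of 3 mice were taken 4 h and 12 h after each dose, where other Timer gates were sorted (Blue+Red- and Blue+Red+). The Timer gate of the control cells is not given in the sources used here, so that immunisation and gate cannot be told apart in any comparison with them. Each library came from a separate mouse. Mice of both sexes were used, and their age was not given in the sources used here. Because most T cells of Tg4 mice bear the same transgenic receptor, the data describe the response of a single specificity, and because the gate was on the reporter, they describe only cells that had responded.

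When a T cell receptor binds its antigen, calcium and kinase signals within minutes switch on immediate early genes, among them those of the Nr4a and Egr transcription factors, whose transcripts decline again once signalling stops. Over the following hours the cells enter the cell cycle, rebuild their cytoskeleton and surface, and take up effector programs, such as that of T helper 1 (Th1) cells, which are set by the transcription factor T-bet, respond to interleukin 12 and interleukin 18, and can make cytotoxic granule proteins. Follicular helper cells, which assist B cells, make interleukin 21 instead.

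The 0.8 µg libraries at 24 h held 3384571 to 4114620 counts and the 80 µg libraries 3688959 to 6244279, of which 23.3% to 27.8% fell on Gm42418, a locus that overlaps a ribosomal RNA repeat, and 8.22% to 9.44% on mitochondrial genes. Between libraries of the same dose the Spearman correlation of the deposited log2 values over 8720 genes was 0.966 to 0.977, and between doses it was 0.952 to 0.966. The first principal component of the 6 libraries held 46.9% of the variance and separated the doses. The second held 22.9% and set apart 1 library of each dose, 0.8 µg replicate 1 and 80 µg replicate 3, which had Xist at 1030 and 1000 CPM (counts scaled to a common library total) and Y-linked transcripts at 0.792 and 0, whereas the remaining libraries had Xist at 0.56 to 5.32 and Y-linked transcripts at 194 to 297. Counts below are normalised counts, that is counts divided by the DESeq2 size factor of the library, and are given in the order of replicates 1, 2 and 3. In bulk libraries, fewer cells of a kind and less RNA per cell cannot be told apart.

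Of 9663 genes tested at 24 h, 151 (1.56%) differed between doses at a Benjamini-Hochberg adjusted p under 0.05 in the DESeq2 Wald test and a shrunken log2 fold change beyond 1 in either direction. These are the genes described below as having risen or fallen with 80 µg. With 80 µg, 86 genes rose (0.890% of those tested) and 65 fell (0.673%). Among the rises were those of Gzmb, Il21, Il12rb2, Tnip3, Plac8, Pdlim4 and Vim, and among the falls those of Lad1, Cd83, Eomes, Nr4a3 and Hes5. In 16 of the genes that rose and 13 of those that fell the log2 fold change was beyond 2. The adjusted p alone was under 0.05 for 573 genes (5.93%), 360 of them higher (3.73%) and 213 lower (2.20%) with 80 µg. The normalised counts of the doses did not overlap in 2161 genes (22.4%), with 80 µg the higher in 1307 (13.5%) and the lower in 854 (8.84%). These include all 151 genes called. Falls were more often in genes of low level: 17 of 65 had a mean under 20 normalised counts over the 6 libraries, against 6 of 86 rises, and 5 falls but 23 rises had a mean of at least 200. The number of calls was 122 to 157 when 1 library was left out at a time, and 100 without both Xist-high libraries, an alternative chosen after the data had been seen. With DESeq2 on the 6 libraries alone 83 genes were called, 71 of them among the 151. Of 104 named genes called, 45 then lost the call, 30 on the fold alone and 15 on the adjusted p, among them Car2, Cdkn1a, Ebf1, Egr2, Igfbp4, Inf2, Jaml, Rgs16, Sik1 and Trdc, with log2 fold changes of 0.38 to 0.78 in size over the 15. With edgeR, a second test of counts, 201 genes were called on these 6 libraries, 136 of them among the 151.

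**Figure D1:**
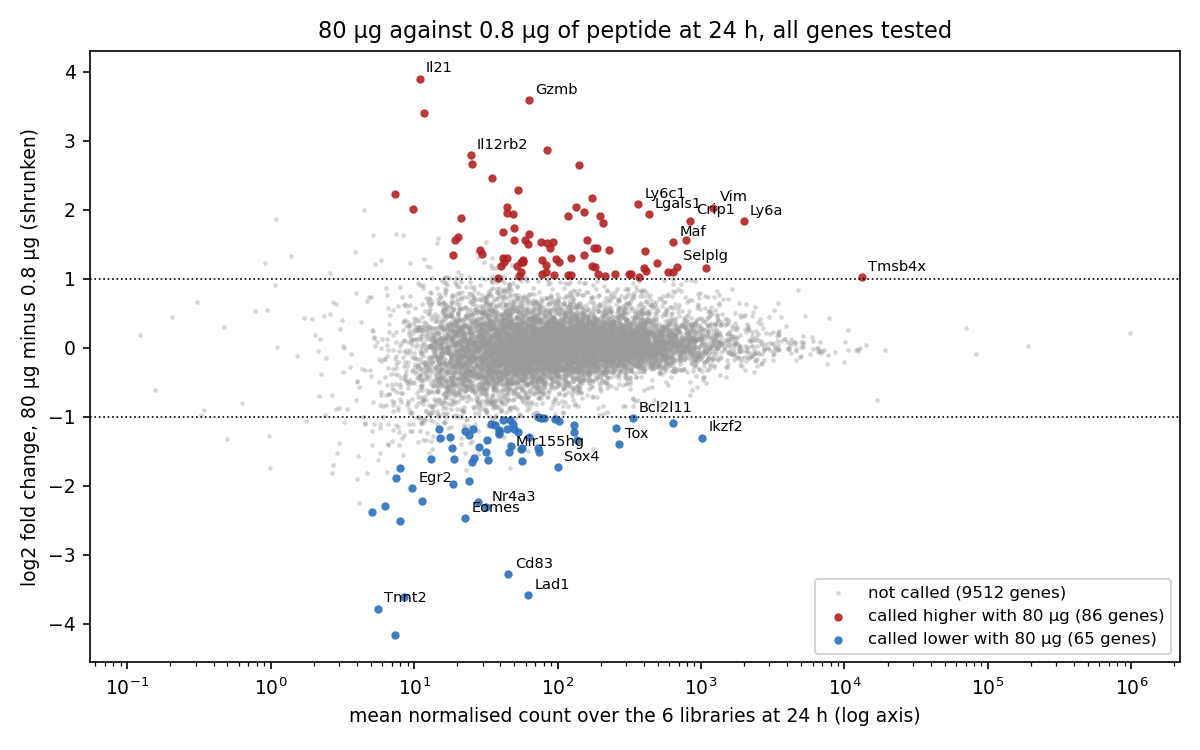
Shrunken log2 fold change at 24 h (80 µg over 0.8 µg) on the vertical axis against the mean normalised count over the 6 libraries on a log horizontal axis, 1 point per gene tested. Red points are the 86 genes that rose, blue points the 65 that fell and grey points those not called. The largest changes lie among genes of low or middle level, while Vim, Ly6a and Tmsb4x rose from high levels.

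Among genes for the cytoskeleton and calcium-binding proteins of effector T cells, 13 of 36 tested rose and 0 fell, against 0.89% and 0.673% of all genes tested. Their median log2 fold change was 0.75 against 0.02 over all genes tested. A further 12 had an adjusted p under 0.05 with a smaller rise. On p alone 25 passed, all of them higher with 80 µg, against 3.73% of all genes tested. This list and those below were chosen with earlier results of these data known, so their shares are no independent evidence. Vim (vimentin, chr2:13573927-13582826, plus strand) encodes an intermediate filament protein. Vim had 433, 523 and 478 normalised counts with 0.8 µg and 1992, 1989 and 1891 with 80 µg (log2 fold change 2.03 ± 0.11 (SE), DESeq2 adjusted p = 7.5e-72), a 4.09-fold difference of means. Crip1 (chr12:113146316-113153879, plus strand), which encodes a small LIM-domain protein, had 373, 339 and 387 with 0.8 µg and 1271, 1358 and 1316 with 80 µg (log2 fold change 1.84 ± 0.13 (SE), DESeq2 adjusted p = 8.5e-44). For both genes the spread within a dose was small beside the gap between doses, and the control group lay near the lower dose, with 608 ± 62.2 for Vim and 612 ± 76.04 for Crip1 (mean ± SD, n = 3). Lgals1, encoding galectin 1, a lectin that binds galactosides on cell surfaces, had 167, 208 and 149 and 749.5, 661 and 651 (log2 fold change 1.94 ± 0.28 (SE), DESeq2 adjusted p = 2.3e-09). Its groups did not overlap either, with a wider relative spread.

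Of the annexin and S100 genes of the list, Anxa2 and S100a6 rose. Anxa2, encoding a phospholipid-binding annexin, went from a mean of 48.01 to 189.7 (log2 fold change 1.91 ± 0.40 (SE), DESeq2 adjusted p = 0.00016), and S100a6, encoding a calcium-binding protein, from 80.3 to 241 (log2 fold change 1.55 ± 0.31 (SE), DESeq2 adjusted p = 6.0e-05). Anxa6 (0.56 ± 0.11, adjusted p = 8.7e-05), S100a10 (0.85 ± 0.17, adjusted p = 4.1e-05) and S100a13 (0.77 ± 0.20, adjusted p = 0.0046) were higher by less than the threshold, Anxa5 (-0.22 ± 0.23, adjusted p = 0.71), S100a4 (-0.02 ± 0.42, adjusted p = 0.99) and S100a11 (0.53 ± 0.28, adjusted p = 0.32) did not pass, and Anxa1 and Anxa4 had no adjusted p. Among actin regulators, Tmsb4x, encoding the actin monomer-binding thymosin beta 4, was the most abundant, at 9457, 8067 and 8623 with 0.8 µg and 17667, 16509 and 19437 with 80 µg (log2 fold change 1.02 ± 0.25 (SE), DESeq2 adjusted p = 0.0021). Flna, encoding the actin cross-linker filamin A, came close to the fold threshold at 593, 554 and 707 and 1133, 1383 and 1114 (log2 fold change 0.97 ± 0.12 (SE), DESeq2 adjusted p = 1.7e-12). Pdlim4, encoding a PDZ and LIM domain protein that binds actin filaments, rose 8.82-fold, from 10.7, 23.3 and 17.6 to 135, 210.5 and 109.7 (log2 fold change 2.87 ± 0.60 (SE), DESeq2 adjusted p = 0.00020), but remained under its control mean of 241 ± 45.5. Neb, encoding the giant actin-binding protein nebulin better known from muscle, rose from a mean of 62.1 to 287 (log2 fold change 2.17 ± 0.28 (SE), DESeq2 adjusted p = 6.3e-12), above the control mean of 51.6 ± 24.4. The unconventional myosins Myo6 (1.56 ± 0.39, adjusted p = 0.0034) and Myo10 (1.30 ± 0.25, adjusted p = 3.6e-05) rose too. The symbols Glipr2, Inf2, Myo6, Myo10, Neb and Pdlim4 entered the list because they stand in a gene table of the study, and without these 6, 7 of 30 genes rose and 0 fell, with a median of 0.55. With the replicate block on the 6 libraries the 13 rises of the whole list became 8, and with edgeR on the 6 libraries 14. Capg lost its call without any 1 of the 6 libraries (log2 fold change 0.97 to 1.08, adjusted p 0.061 to 0.097) and without both Xist-high libraries (log2 fold change 1.07, adjusted p = 0.17). Inf2 lost its call without 0.8 µg replicate 1 or 3 or 80 µg replicate 2 or 3 (log2 fold change 0.93 to 0.96, adjusted p 0.11 to 0.12) and without both Xist-high libraries (log2 fold change 0.89, adjusted p = 0.25). Myo10 lost its call without 0.8 µg replicate 3 (log2 fold change 1.00, adjusted p = 0.0064). Myo6 lost its call without 80 µg replicate 2 (log2 fold change 1.30, adjusted p = 0.061). Tmsb4x lost its call without 0.8 µg replicate 2 or 80 µg replicate 3 (log2 fold change 0.94 to 0.97, adjusted p 0.027 to 0.028).

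Of 25 Th1 and cytotoxic genes tested, 7 rose and 2 fell, against 0.89% and 0.673% of all genes tested. Their median log2 fold change was 0.50. The 7 rises became 5 with DESeq2 on the 6 libraries alone and 4 with the replicate block added, but 8 with edgeR on the 6 libraries. Gzmb (chr14:56258838-56262260, minus strand) encodes granzyme B, a serine protease of cytotoxic granules. Gzmb had 9.73, 11.2 and 4.13 normalised counts with 0.8 µg and 71.2, 94.9 and 186 with 80 µg, a 14.1-fold difference (log2 fold change 3.59 ± 0.47 (SE), DESeq2 adjusted p = 5.5e-11), and the control mean was 3.89 ± 4.34. The lowest 80 µg library was several times the highest 0.8 µg library, although the 80 µg libraries themselves ranged widely. The promoter of Gzmb, from 250 bases before to 50 bases after the transcript start, is shown because this gene had the largest rise of all genes whose mean reached 20 normalised counts. It is RefSeq sequence of GRCm38.p6, chr14:56262285-56262584, minus strand, and the capitals mark a match to the AP-1 motif TGANTCA, at 58 to 52 bases before the start.
Gzmb promoter: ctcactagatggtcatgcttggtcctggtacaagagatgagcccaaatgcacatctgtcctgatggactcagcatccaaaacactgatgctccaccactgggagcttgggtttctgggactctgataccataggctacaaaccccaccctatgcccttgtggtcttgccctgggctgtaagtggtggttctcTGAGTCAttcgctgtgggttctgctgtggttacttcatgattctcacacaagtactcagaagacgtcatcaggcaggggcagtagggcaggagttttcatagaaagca

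Tbx21 (chr11:97098071-97115331, minus strand), which encodes T-bet, had 29.2, 16.8 and 6.19 with 0.8 µg and 92.05, 44.9 and 78.3 with 80 µg (log2 fold change 1.95 ± 0.32 (SE), DESeq2 adjusted p = 1.6e-07). Il12rb2, encoding the signalling chain of the interleukin 12 receptor, had 7.79, 5.59 and 3.10 and 41.6, 39.00 and 51.8 (log2 fold change 2.79 ± 0.50 (SE), DESeq2 adjusted p = 6.4e-06), and it was close to 0 in the control group (0.476 ± 0.824). Its exons overlap those of Serbp1, and reads from overlapping exons cannot be told apart where the counting did not use strand, which is not stated. Il18rap and Il18r1, the chains of the interleukin 18 receptor, rose 5.38-fold (log2 fold change 2.28 ± 0.52 (SE), DESeq2 adjusted p = 0.00080) and 2.33-fold (log2 fold change 1.20 ± 0.36 (SE), DESeq2 adjusted p = 0.021). Klrd1, encoding the lectin-like receptor CD94, rose from a mean of 8.78 to 33.9 (adjusted p = 0.0041), and Prdm1, encoding the transcription factor Blimp-1, from 16.2 to 43.1 (adjusted p = 0.024). Stat4, which carries the interleukin 12 signal, and Runx3 were higher by less than the threshold (log2 fold change 0.84 and 0.54, adjusted p = 0.00036 and 0.0059).

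The same list held genes that went the other way. Eomes (chr9:118478212-118486132, plus strand), which encodes a T-box factor related to T-bet, had 33.1, 30.8 and 53.7 with 0.8 µg and 7.67, 7.36 and 4.31 with 80 µg (log2 fold change -2.47 ± 0.42 (SE), DESeq2 adjusted p = 1.1e-06), and Cd160, encoding a receptor of cytotoxic lymphocytes, had 38.9, 27.98 and 51.6 and 0, 13.2 and 13.6 (log2 fold change -1.93 ± 0.38 (SE), DESeq2 adjusted p = 4.9e-05). Neither gene's groups overlapped. The call of Cd160 was lost in the DESeq2 fits of the 6 libraries alone, at -0.38 (adjusted p = 0.35) and, with the replicate block added, at -0.25 (adjusted p = 0.46). It was kept with edgeR on the 6 libraries. Ifng, the gene of the Th1 cytokine interferon gamma, had 2.92, 1.86 and 3.10 and 12.1, 10.3 and 4.93; its groups did not overlap, but the difference did not pass the test (log2 fold change 1.28 ± 0.78 (SE), DESeq2 adjusted p = 0.39). Gzma (log2 fold change 0.04), Ccl5 (-0.30) and Ccl4 (0.00) did not pass either, with adjusted p values of 0.98, 0.86 and 1.0. Il18r1 lost its call without 0.8 µg replicate 1 or 2 or 80 µg replicate 1, 2 or 3 (log2 fold change 0.98 to 1.22, adjusted p 0.053 to 0.16) and without both Xist-high libraries (log2 fold change 0.84, adjusted p = 0.37). Prdm1 lost its call without 0.8 µg replicate 1 or 2 or 80 µg replicate 1, 2 or 3 (log2 fold change 1.10 to 1.38, adjusted p 0.059 to 0.17). The 7 rises became 3 without 80 µg replicate 1, where Il18rap and Klrd1 had no adjusted p, and 4 without 80 µg replicate 2, where Klrd1 had none.

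**Figure D2:**
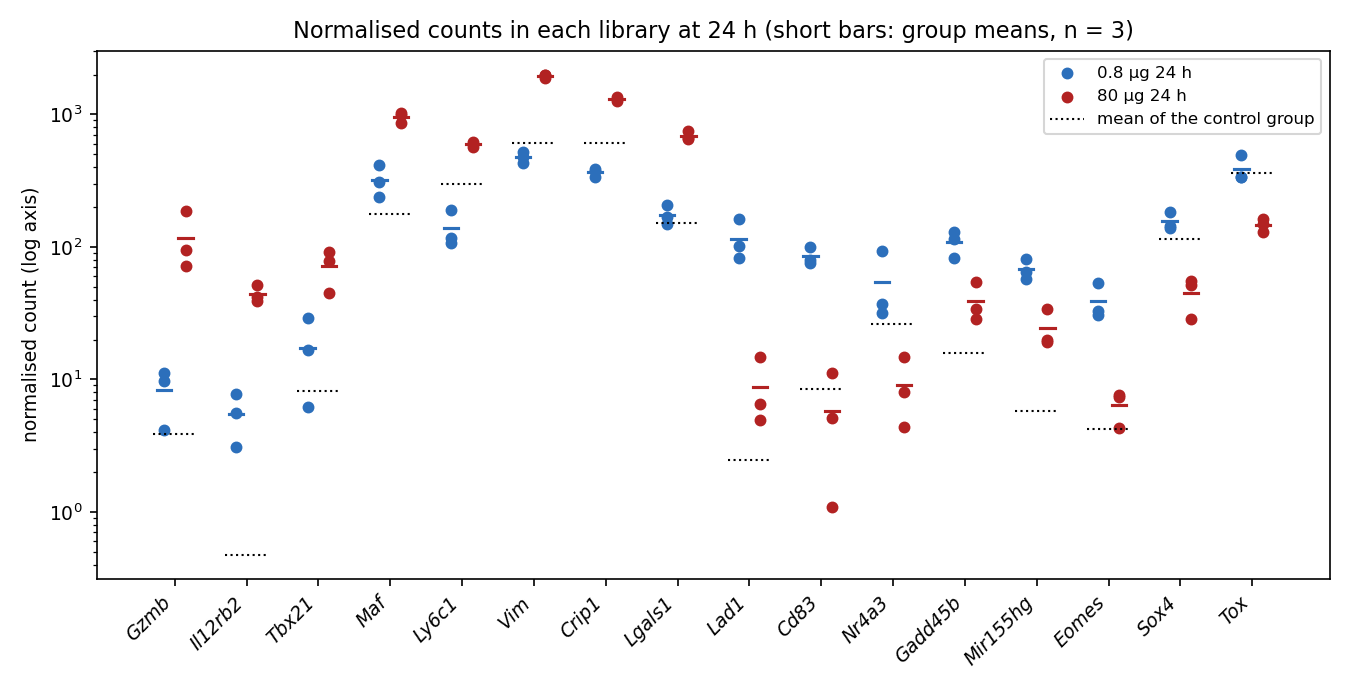
Normalised counts of single genes at 24 h on a log vertical axis, with 1 dot per library, a short bar at each group mean and a dotted line at the mean of the 3 control libraries. In each gene shown as called, the dots of the 2 doses do not overlap, and the dotted line shows whether the lower or the higher dose lay nearer to cells that were not immunised.

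Among surface molecules for homing, egress and adhesion, 8 of 33 genes tested rose and 1 fell, against 0.89% and 0.673% of all genes tested. Their median was 0.41. The 8 rises became 4 with DESeq2 on the 6 libraries alone and 3 with the replicate block added, but 9 with edgeR on the 6 libraries. Ly6c1 (chr15:75044018-75048830, minus strand), a surface antigen of memory and effector T cells, had 117, 189 and 107 with 0.8 µg and 603, 617 and 566 with 80 µg (log2 fold change 2.08 ± 0.25 (SE), DESeq2 adjusted p = 2.2e-13). Reads of its near-identical neighbour Ly6c2 (adjusted p = 0.45) may be shared with it. Ly6a, encoding the surface protein Sca-1, was at 899.5, 1270.1 and 356 and 3150.4, 2680.2 and 3572 (log2 fold change 1.84 ± 0.34 (SE), DESeq2 adjusted p = 1.3e-05), against a control mean of 291 ± 30.3. With DESeq2 on the 6 libraries alone its change came under the threshold, at 0.94 (adjusted p = 0.0095), and at 0.78 (adjusted p = 0.033) with the replicate block. Selplg, which encodes PSGL-1, the ligand of P-selectin, rose 2.26-fold with very little spread, from 363, 417 and 478 to 933, 944 and 964 (log2 fold change 1.17 ± 0.12 (SE), DESeq2 adjusted p = 7.1e-21). The integrin chains Itgb3 (log2 fold change 1.45 ± 0.21 (SE), DESeq2 adjusted p = 5.1e-09) and Itgb7 (log2 fold change 1.10 ± 0.17 (SE), DESeq2 adjusted p = 1.8e-08) and the sphingosine 1-phosphate receptor S1pr4 (log2 fold change 1.07 ± 0.17 (SE), DESeq2 adjusted p = 2.3e-07) rose with them. For Selplg, Itgb7 and Itgb3 the 80 µg means of 947, 865 and 264 were close to the control means of 955 ± 22.8, 845 ± 77.3 and 322 ± 33.2. Ccr7, encoding a chemokine receptor for entry into lymph nodes (log2 fold change 0.23 ± 0.14 (SE), DESeq2 adjusted p = 0.43), did not pass the test. Jaml lost its call without 0.8 µg replicate 3 or 80 µg replicate 2 (log2 fold change 0.90 to 1.10, adjusted p 0.038 to 0.066). S1pr4 lost its call without 80 µg replicate 1 (log2 fold change 0.96, adjusted p = 0.00012). Itgb7 lost its call without 0.8 µg replicate 1 (log2 fold change 1.00, adjusted p = 1.2e-05) and without both Xist-high libraries (log2 fold change 0.98, adjusted p = 0.00054).

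Plac8 (chr5:100553725-100572245, minus strand), a gene of a small cysteine-rich protein that marks effector lymphocytes, rose 8.02-fold, from 62.3, 27.98 and 4.13 with 0.8 µg to 179.7, 199 and 378 with 80 µg (log2 fold change 2.64 ± 0.68 (SE), DESeq2 adjusted p = 0.0054). Its 0.8 µg libraries were far apart from each other, though under all 80 µg libraries. Plac8 lost its call without 80 µg replicate 3 (log2 fold change 2.14, adjusted p = 0.079). The call was also lost with DESeq2 on the 6 libraries alone, at 0.60 (adjusted p = 0.044), and with the replicate block added, at 0.41 (adjusted p = 0.10). Its promoter is shown because it held matches to 2 of the motifs searched: RefSeq sequence of GRCm38.p6, chr5:100572156-100572455, minus strand. The capitals mark the T-box motif AGGTGTGA, at 249 to 242 bases before the start, and the KLF motif CCACACCC, at 200 to 193 bases before it.
Plac8 promoter: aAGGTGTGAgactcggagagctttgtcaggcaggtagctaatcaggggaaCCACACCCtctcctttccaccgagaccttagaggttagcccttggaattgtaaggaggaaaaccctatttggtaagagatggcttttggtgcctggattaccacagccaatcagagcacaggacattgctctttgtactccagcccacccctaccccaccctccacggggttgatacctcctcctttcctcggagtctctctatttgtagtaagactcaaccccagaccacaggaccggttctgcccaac

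Cytokine receptor genes rose in 5 of 28 tested and fell in 1, against 0.89% and 0.673% of all genes tested. Their median was 0.27. With DESeq2 on the 6 libraries alone 3 of the list rose, and 2 with the replicate block added, while edgeR on the 6 libraries gave 5. Beside the receptor chains for interleukins 12 and 18, Il1r1, which encodes the interleukin 1 receptor, rose from a mean of 1.28 to 22.2 (adjusted p = 0.00021), a fitted change that rests on very few counts with 0.8 µg. Ifngr2, which encodes a chain of the interferon gamma receptor, fell from 51.6, 53.2 and 80.5 to 30.7, 24.3 and 25.9 (log2 fold change -1.17 ± 0.33 (SE), DESeq2 adjusted p = 0.011). Il2ra (log2 fold change 0.26 ± 0.23 (SE), DESeq2 adjusted p = 0.66) and Il7r (log2 fold change 0.78 ± 0.26 (SE), DESeq2 adjusted p = 0.055) did not pass. Of signal feedback genes, Pim1, encoding a kinase induced by cytokines, rose from 316, 356 and 439 to 794, 741 and 859.7 (log2 fold change 1.10 ± 0.16 (SE), DESeq2 adjusted p = 6.3e-10), and Socs3, encoding an inhibitor of cytokine signalling, rose from a mean of 84.6 to 224 (adjusted p = 0.041). Il10ra lost its call without 0.8 µg replicate 1, 2 or 3 or 80 µg replicate 2 or 3 (log2 fold change 1.03 to 1.29, adjusted p 0.082 to 0.19). Ifngr2 lost its call without 0.8 µg replicate 3 or 80 µg replicate 2 or 3 (log2 fold change -1.14 to -0.93, adjusted p 0.067 to 0.13) and without both Xist-high libraries (log2 fold change -1.24, adjusted p = 0.079). Socs3 lost its call without 0.8 µg replicate 1 or 2 or 80 µg replicate 1, 2 or 3 (log2 fold change 1.09 to 1.38, adjusted p 0.085 to 0.21) and without both Xist-high libraries (log2 fold change 0.90, adjusted p = 0.43). Pim1 lost its call without 0.8 µg replicate 1 (log2 fold change 1.00, adjusted p = 1.3e-06) and without both Xist-high libraries (log2 fold change 0.94, adjusted p = 0.00011). The 5 rises became 2 without 80 µg replicate 1, where Il18rap and Il10ra had no adjusted p, and 3 without 0.8 µg replicate 1 or 2 or 80 µg replicate 2 or 3.

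Follicular helper genes moved in both directions, with 2 of 24 higher and 2 lower, against 0.89% and 0.673% of all genes tested. Il21, the cytokine gene of these cells, had 0.973, 0 and 1.03 with 0.8 µg and 17.5, 15.5 and 30.8 with 80 µg (adjusted p = 0.00027), a ratio of counts of 34.3 with a counting interval of 9.21 to 288, since the 0.8 µg libraries held 2 counts in all. Maf, encoding a transcription factor that acts on Il21 and Il10, had 238, 418 and 308 and 998, 860.3 and 1018 (log2 fold change 1.53 ± 0.33 (SE), DESeq2 adjusted p = 0.00028). The groups of Maf were separate and the control mean was 177 ± 58.5. Tox, encoding a nuclear factor of thymocytes and chronically stimulated T cells, fell from 339, 338 and 494 to 129, 162 and 149 (log2 fold change -1.40 ± 0.17 (SE), DESeq2 adjusted p = 6.2e-13). Bcl6, the transcriptional regulator of follicular helper cells, was lower by less than the threshold (log2 fold change -0.88 ± 0.25 (SE), DESeq2 adjusted p = 0.012), and Cxcr5, the chemokine receptor of these cells, did not pass the test (log2 fold change 0.09 ± 0.23 (SE), DESeq2 adjusted p = 0.90).

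Genes of the NF-kB pathway, which carries receptor signals to the nucleus through the Malt1 complex, gave 2 rises and 0 falls among 31. Over all genes tested the shares were 0.89% and 0.673%. Malt1, the paracaspase of that complex, had 78.9, 104 and 135 and 240.0, 231 and 259 (log2 fold change 1.19 ± 0.19 (SE), DESeq2 adjusted p = 1.4e-07), and Tnip3, a partner of the NF-kB inhibitor A20, had 3.89, 5.59 and 7.23 and 16.4, 57.4 and 61.6 (log2 fold change 2.66 ± 0.59 (SE), DESeq2 adjusted p = 0.00057). In contrast, the transcripts of the NF-kB subunits Rel (-0.84 ± 0.14, adjusted p = 4.5e-07), Nfkb1 (-0.47 ± 0.11, adjusted p = 0.0021) and Relb (-0.87 ± 0.22, adjusted p = 0.0027) and of the inhibitor Nfkbia (-0.42 ± 0.13, adjusted p = 0.020) were lower by less than the threshold. On adjusted p alone the list had 2 genes higher and 6 lower, against 3.73% and 2.2% of all genes tested. Malt1 lost its call without both Xist-high libraries (log2 fold change 0.96, adjusted p = 0.0019). Tnip3 lost its call without both Xist-high libraries (log2 fold change 2.06, adjusted p = 0.065).

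Of 64 mitosis genes tested, 62 had a positive log2 fold change, with a median of 0.50. The groups did not overlap and 80 µg was the higher in 48 of the 64, against 13.5% of all genes tested. On adjusted p alone 17 were higher, against 3.73% of all genes, and 4 rose, against 0.890%. The 4 were Cdc25b, which encodes a phosphatase that activates mitotic kinases (82.7, 85.8 and 104 and 298, 361 and 313, log2 fold change 1.80 ± 0.30 (SE), DESeq2 adjusted p = 7.1e-07), Prc1, encoding a protein of the spindle midzone (log2 fold change 1.15 ± 0.25 (SE), DESeq2 adjusted p = 0.00032), Ccnf (log2 fold change 1.06 ± 0.32 (SE), DESeq2 adjusted p = 0.023) and Pbk (log2 fold change 1.24 ± 0.38 (SE), DESeq2 adjusted p = 0.027). Of 50 DNA replication genes, 48 were positive with a median of 0.25 and 0 were called. On adjusted p alone 3 were higher (Rrm2 0.74, Cdt1 0.50 and Rpa1 0.43), against 3.73% of all genes tested. Of 25 inhibitors of cyclin-dependent kinases and other G1 regulators tested, 3 rose and 0 fell, against 0.890% and 0.673% of all genes tested. On adjusted p alone 5 were higher and 2 lower, against 3.73% and 2.20%. Cdkn2d, encoding p19INK4d, had 117, 111 and 142 and 324, 304 and 375 (log2 fold change 1.42 ± 0.25 (SE), DESeq2 adjusted p = 1.5e-06), Cdkn2c, encoding p18INK4c, had 42.8, 32.6 and 41.3 and 85.5, 132 and 127 (log2 fold change 1.53 ± 0.38 (SE), DESeq2 adjusted p = 0.0032), and Cdkn1a, encoding p21, had 2.92, 1.86 and 5.16 and 15.3, 15.5 and 17.9 (log2 fold change 2.01 ± 0.57 (SE), DESeq2 adjusted p = 0.015). Cyclin D3 (Ccnd3) was higher and Trp53 lower by less than the threshold (log2 fold change 0.72 and -0.60). Prc1 lost its call without both Xist-high libraries (log2 fold change 1.13, adjusted p = 0.075). Ccnf lost its call without 0.8 µg replicate 1 or 2 or 80 µg replicate 1 or 3 (log2 fold change 0.82 to 1.09, adjusted p 0.100 to 0.25). Pbk lost its call without any 1 of the 6 libraries (log2 fold change 1.05 to 1.39, adjusted p 0.077 to 0.22). Cdkn2c lost its call without 80 µg replicate 3 (log2 fold change 1.35, adjusted p = 0.071). Cdkn1a lost its call without 0.8 µg replicate 1 or 2 or 80 µg replicate 3 (log2 fold change 1.67 to 1.92, adjusted p 0.058 to 0.11). The 4 calls among mitosis genes became 2 without 80 µg replicate 1 or 3.

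Immediate early genes of receptor signalling gave 11 falls and 0 rises among 41 tested, against 0.673% and 0.89% of all genes tested. Their median was -0.35, and 15 were lower on adjusted p alone, against 2.2% of all genes tested. The 11 falls became 6 with DESeq2 on the 6 libraries alone, both with and without the replicate block, and 10 with edgeR on the 6 libraries. Nr4a3 (chr4:48045153-48086447, plus strand), whose expression also drives the Timer protein on which the cells were sorted, had 36.99, 31.7 and 93.9 with 0.8 µg and 4.38, 8.10 and 14.8 with 80 µg (log2 fold change -2.31 ± 0.42 (SE), DESeq2 adjusted p = 6.3e-06), with 26.1 ± 12.3 in the control group. Its 0.8 µg replicate 3 was the highest, and all 80 µg libraries were lower than all 0.8 µg libraries. Cd83, encoding a surface protein of activated lymphocytes, had 75.9, 79.3 and 100.1 and 1.10, 5.15 and 11.1, a 14.7-fold fall (log2 fold change -3.28 ± 0.67 (SE), DESeq2 adjusted p = 9.0e-05). Gadd45b, a stress-induced gene, had 115, 129.6 and 82.6 and 54.8, 28.7 and 33.9 (log2 fold change -1.51 ± 0.20 (SE), DESeq2 adjusted p = 2.6e-11). These groups did not overlap either, and the 80 µg libraries lay nearer to the control means of 8.51 ± 12.4 for Cd83 and 15.8 ± 6.20 for Gadd45b.

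Of the Egr factors and their Nab corepressors in the list, Egr1, Egr2 and Nab2 fell. Egr1 had 199, 129 and 223 and 64.7, 71.4 and 94.3 (log2 fold change -1.22 ± 0.24 (SE), DESeq2 adjusted p = 4.9e-05), Egr2 had 21.4, 6.53 and 20.6 and 1.10, 5.15 and 3.08 (log2 fold change -2.03 ± 0.48 (SE), DESeq2 adjusted p = 0.0013), and Nab2 had 189, 139.9 and 266 and 78.9, 34.6 and 113 (log2 fold change -1.34 ± 0.35 (SE), DESeq2 adjusted p = 0.0050). For Nab2 the 6 libraries alone gave -0.69 (DESeq2 adjusted p = 0.12), and the call was lost. Its exons overlap those of Stat6 and Nemp1. Nab1 did not pass (0.14 ± 0.13, adjusted p = 0.67), and Egr3, with 0 counts in every 80 µg library, was too rarely counted for an adjusted p. Egr2 lost its call without both Xist-high libraries (log2 fold change -1.62, adjusted p = 0.092). Trib1, encoding a pseudokinase, fell by less (log2 fold change -1.06 ± 0.19 (SE), DESeq2 adjusted p = 2.1e-06). Cd69 (log2 fold change -0.58 ± 0.16 (SE), DESeq2 adjusted p = 0.0068), Irf4 (log2 fold change -0.66 ± 0.18 (SE), DESeq2 adjusted p = 0.0082) and Tnf (log2 fold change -0.83 ± 0.26 (SE), DESeq2 adjusted p = 0.027) were lower by less than the threshold. Nr4a1 (log2 fold change -0.98 ± 0.39 (SE), DESeq2 adjusted p = 0.13), Nr4a2 (log2 fold change -0.68 ± 0.43 (SE), DESeq2 adjusted p = 0.46), Fos (log2 fold change -0.28 ± 0.47 (SE), DESeq2 adjusted p = 0.84), Myc (log2 fold change 0.03 ± 0.26 (SE), DESeq2 adjusted p = 0.97) and Il2 (log2 fold change -0.17 ± 0.51 (SE), DESeq2 adjusted p = 0.93) did not pass the test. Rgs16 lost its call without 0.8 µg replicate 3 or 80 µg replicate 3 (log2 fold change -1.85 to -1.73, adjusted p 0.15 to 0.17). Sik1 lost its call without 0.8 µg replicate 1 or 3 or 80 µg replicate 3 (log2 fold change -1.27 to -1.07, adjusted p 0.070 to 0.15) and without both Xist-high libraries (log2 fold change -1.03, adjusted p = 0.26).

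Mir155hg (chr16:84703167-84715245, plus strand), the host transcript of miR-155, a microRNA induced on lymphocyte activation, had 65.2, 56.9 and 81.6 with 0.8 µg and 33.97, 19.9 and 19.1 with 80 µg (log2 fold change -1.51 ± 0.22 (SE), DESeq2 adjusted p = 1.6e-09), against 5.73 ± 4.51 in the control group. Only the host transcript was counted, not the mature microRNA. The mature sequence is shown as RefSeq gives it for GRCm38.p6, chr16:84714143-84714165, plus strand, with the seed (bases 2 to 8) in capitals, because those bases decide which transcripts it can pair with.
mmu-miR-155-5p: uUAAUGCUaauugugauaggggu

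Costimulatory receptors and ligands gave 5 falls and 0 rises among 21, against 0.673% and 0.89% of all genes tested. Their median was -0.25. The 5 falls became 2 with the replicate block on the 6 libraries and stayed 5 with edgeR on the 6 libraries. Tnfrsf9 (chr4:150914562-150946102, plus strand), encoding the costimulatory receptor 4-1BB, had 67.2, 75.5 and 184 and 31.8, 27.96 and 53.00 (log2 fold change -1.45 ± 0.38 (SE), DESeq2 adjusted p = 0.0040), and Lta, encoding the cytokine lymphotoxin alpha, had 87.6, 79.3 and 78.5 and 32.9, 30.9 and 24.7 (log2 fold change -1.46 ± 0.24 (SE), DESeq2 adjusted p = 1.5e-07). The tetraspanins Cd82 (log2 fold change -1.13 ± 0.24 (SE), DESeq2 adjusted p = 0.00021) and Cd81 (log2 fold change -1.04 ± 0.20 (SE), DESeq2 adjusted p = 4.0e-05) and Cd83, given above, made up the rest. The opposite held on adjusted p alone for Cd28 (0.47 ± 0.10, adjusted p = 8.7e-05), Icos (0.69 ± 0.18, adjusted p = 0.0045) and Tnfrsf25 (0.99 ± 0.23, adjusted p = 0.0011), which were higher by less than the threshold. Tnfrsf9 lost its call without 0.8 µg replicate 3 (log2 fold change -0.90, adjusted p = 0.094). Cd81 lost its call without 0.8 µg replicate 3 or 80 µg replicate 2 (log2 fold change -0.97 to -0.84, adjusted p 0.0021 to 0.0045). A promoter window of Tnfrsf9 is shown because it held matches to the motifs of 2 factor families that receptor signals activate: RefSeq sequence of GRCm38.p6, chr4:150927749-150928048, plus strand. The capitals mark the kappaB motif GGGANTTCC, at 42 to 34 bases before the start, and the AP-1 motif TGANTCA, at 15 to 9 bases before it.
Tnfrsf9 promoter: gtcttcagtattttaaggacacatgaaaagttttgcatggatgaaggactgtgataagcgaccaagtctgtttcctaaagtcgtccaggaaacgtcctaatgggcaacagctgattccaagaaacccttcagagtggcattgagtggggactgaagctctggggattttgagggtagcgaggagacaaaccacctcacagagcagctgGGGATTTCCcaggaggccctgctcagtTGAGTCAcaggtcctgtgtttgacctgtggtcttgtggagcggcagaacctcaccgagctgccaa

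Promoter windows of 300 bases were available for 67 of the 86 genes that rose (97 windows) and 48 of the 65 that fell (69 windows), and 9 motifs were searched in them on both strands. AP-1 (TGANTCA) was matched in 8.25% of windows of genes that rose, 4.35% of those that fell, 4.50% of those of all genes tested and 7.81% of all promoters of RefSeq. In the same order KLF (CCACACCC) was matched in 9.28%, 4.35%, 3.65% and 3.56%, T-box (AGGTGTGA) in 3.09%, 2.90%, 0.755% and 1.28%, EGR (GCGTGGGCG) in 3.09%, 2.90%, 1.28% and 0.612%, and kappaB (GGGANTTCC) in 4.12%, 1.45%, 2.59% and 1.68%. CRE (TGACGTCA) was matched in 0%, 1.45%, 3.39% and 1.79%, E2F (TTTCCCGC) in 1.03%, 0%, 2.33% and 1.07%, RUNX (TGTGGTTT) in 0%, 1.45%, 1.09% and 1.78%, and NBRE (AAAGGTCA) in 1.03%, 0%, 1.00% and 1.51%. Windows of a gene with several starts can overlap and hold the same match: the 8 AP-1, 9 KLF and 4 kappaB windows of genes that rose belonged to 7, 8 and 3 genes. These shares rest on at most 9 windows of called genes for any motif, and 1 pair of matches to different motifs overlapped. They describe letters in the windows, not binding.

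The largest single fall among genes with a mean of at least 20 was that of Lad1 (chr1:135818598-135833342, plus strand), which encodes ladinin 1, an anchoring filament protein. Lad1 had 81.8, 102 and 163 normalised counts with 0.8 µg and 6.57, 14.7 and 4.93 with 80 µg, a 13.2-fold difference (log2 fold change -3.58 ± 0.30 (SE), DESeq2 adjusted p = 1.9e-28), and the control mean was 2.45 ± 1.67. Tnnt2, the neighbouring cardiac troponin T gene (chr1:135836354-135852260, plus strand), and Pdzk1ip1 had 0 counts in every 80 µg library; with the 0.8 µg libraries at 11.7, 7.46 and 14.5 and 10.7, 26.1 and 7.23 they were at least 14.4-fold and at least 19.5-fold lower, taking 3 counts over the 80 µg group as the floor. Both are named after their values were seen. Bcl2l11, which encodes the death-promoting protein Bim, fell from 470.2, 392 and 481 to 244, 216 and 200.3 (log2 fold change -1.02 ± 0.15 (SE), DESeq2 adjusted p = 1.7e-09), and it was the only gene of 12 Bcl2 family members tested that was called. Over all genes tested, 1.56% were called. Bcl2l11 lost its call without 0.8 µg replicate 1 or 3 or 80 µg replicate 3 (log2 fold change -0.99 to -0.95, adjusted p 8.3e-07 to 3.5e-06) and without both Xist-high libraries (log2 fold change -0.92, adjusted p = 0.00011). Nrn1, encoding the membrane-anchored protein neuritin, fell from 89.6, 62.5 and 107 to 24.1, 19.9 and 35.1 (log2 fold change -1.65 ± 0.35 (SE), DESeq2 adjusted p = 0.00020).

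A list of thymic and innate-like T cell genes, assembled when results of these data were known and so no independent evidence of a direction, had 10 falls and 0 rises among 16 tested, with a median of -1.19 and all 16 values negative. Over all genes tested 0.673% fell and 0.89% rose. Sox4 (chr13:28948919-28953713, minus strand), encoding a transcription factor of thymocytes, had 144, 139 and 185 and 28.5, 51.5 and 54.8 (log2 fold change -1.73 ± 0.22 (SE), DESeq2 adjusted p = 4.9e-12). Ikzf2, encoding the Ikaros family factor Helios, had 1312, 1159 and 1890.2 and 614, 524 and 614 (log2 fold change -1.30 ± 0.19 (SE), DESeq2 adjusted p = 3.0e-09), both doses above the control mean of 196 ± 73.3. Zbtb20, encoding a zinc finger repressor, had 254, 290.0 and 513 and 145, 157 and 165 (log2 fold change -1.16 ± 0.21 (SE), DESeq2 adjusted p = 3.9e-06), both under the control mean of 1154 ± 94.4. Hes5, a target gene of Notch signalling, was 31.7-fold lower by counts, with a counting interval of 8.34 to 269. Cd8a (log2 fold change -2.51 ± 0.61 (SE), DESeq2 adjusted p = 0.0030) and Trdc, the constant gene of the T cell receptor delta chain (log2 fold change -1.21 ± 0.38 (SE), DESeq2 adjusted p = 0.027), are also markers of other T cell types. Both lost their calls with DESeq2 on the 6 libraries alone, at -0.81 (adjusted p = 0.022) for Cd8a and -0.73 (adjusted p = 0.091) for Trdc. With the replicate block added they had -0.55 (adjusted p = 0.10) and -0.58 (adjusted p = 0.31). Zbtb20 lost its call without 0.8 µg replicate 3 (log2 fold change -0.80, adjusted p = 0.00034). Ephx1 lost its call without 0.8 µg replicate 3 (log2 fold change -0.95, adjusted p = 0.085). Cd81 lost its call without 0.8 µg replicate 3 or 80 µg replicate 2 (log2 fold change -0.97 to -0.84, adjusted p 0.0021 to 0.0045). Trdc lost its call without 0.8 µg replicate 1 or 2 or 80 µg replicate 1 or 2 (log2 fold change -1.24 to -0.97, adjusted p 0.071 to 0.17). The 10 falls became 6 without 80 µg replicate 2, where Hes5 and Cd8a had no adjusted p. With DESeq2 on the 6 libraries alone 6 of the list fell, and 4 with the replicate block added, while edgeR on the 6 libraries gave 10.

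Markers of other cells were examined in the same libraries as summed CPM. CD4 T cell markers summed to 4183 to 4479 CPM with 80 µg and 3817 to 4271 with 0.8 µg, and each of the 10 was detected. CD8 T cell markers summed to 20.06 to 28.8 with 80 µg and 34.3 to 40.9 with 0.8 µg, gamma delta T cell markers to 3.73 to 6.25 and 8.02 to 10.03, and natural killer (NK) cell markers to 11.9 to 18.7 and 21.1 to 25.03, so that these 3 sums did not overlap between doses and were lower with 80 µg. Only 1 NK marker, Gzma, had enough counts to be tested, and it was not called (log2 fold change 0.04). In the control the NK sum was 8.54 to 10.5, under that of either dose. Macrophage markers summed to 59.1 to 86.2 and 82.1 to 105, erythroid markers to 19.4 to 71.6 and 56.7 to 216, and B cell markers to 403 to 467 and 332 to 439. Dendritic cell markers were at 0 to 0.160 and 0.972 to 3.25, with Flt3 and Itgax at 0 in every 80 µg library, and Cd79a, a defining gene of B cells, had 0 counts at both doses. The B cell sum was made up largely of Ighm, while 11 of the 13 B cell markers tested were negative, with a median log2 fold change of -0.81. Of the marker genes, Apoe (log2 fold change -1.60 ± 0.35 (SE), DESeq2 adjusted p = 0.00033), Vcam1 (log2 fold change -1.97 ± 0.64 (SE), DESeq2 adjusted p = 0.040), Car2 (log2 fold change -1.75 ± 0.52 (SE), DESeq2 adjusted p = 0.021), Ebf1 (log2 fold change -2.29 ± 0.71 (SE), DESeq2 adjusted p = 0.027), Cd8a and Trdc fell with 80 µg. The part of other cells in these falls, and in that of the thymic and innate-like genes and of Cd160, was not tested. Vcam1 lost its call without 0.8 µg replicate 1 or 2 or 80 µg replicate 3 (log2 fold change -1.91 to -1.58, adjusted p 0.11 to 0.25). Car2 lost its call without 0.8 µg replicate 1 or 3 or 80 µg replicate 2 or 3 (log2 fold change -1.74 to -1.35, adjusted p 0.057 to 0.18). Ebf1 lost its call without 0.8 µg replicate 1 or 3 or 80 µg replicate 3 (log2 fold change -2.23 to -1.77, adjusted p 0.074 to 0.18). Apoe lost its call with DESeq2 on the 6 libraries alone, at -0.94 (adjusted p = 0.0098), and with the replicate block added, at -0.80 (adjusted p = 0.057).

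**Figure D3:**
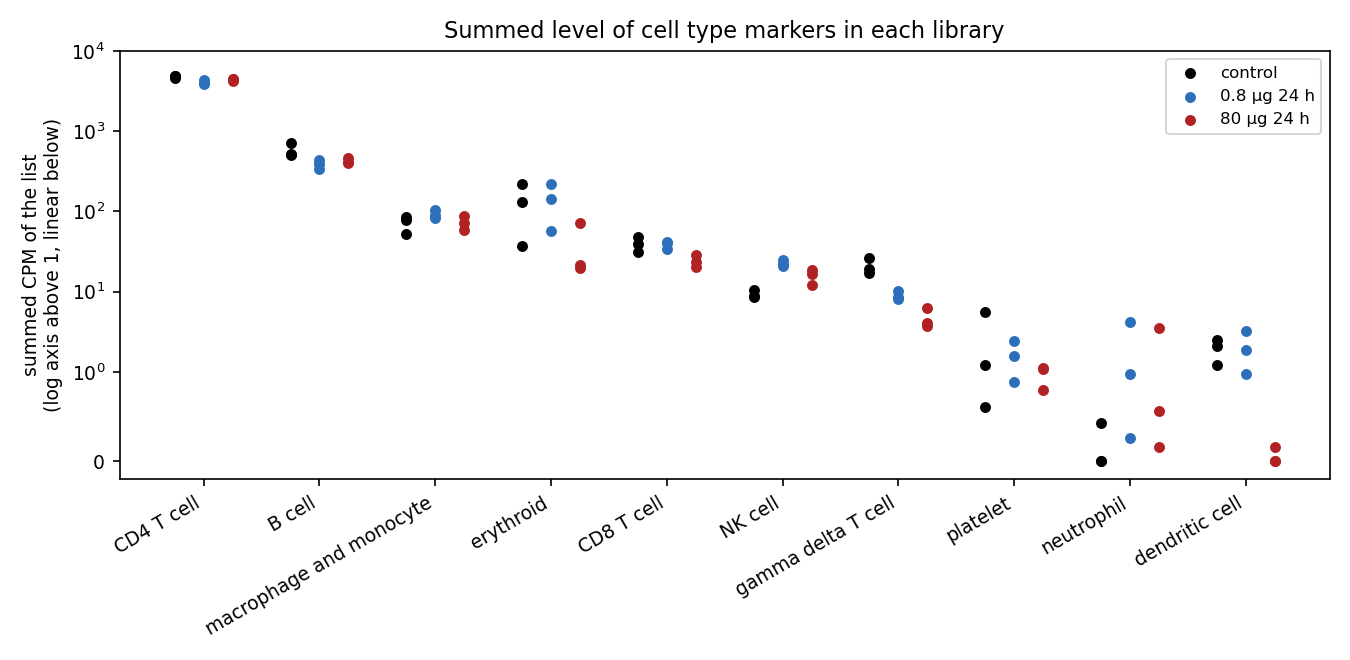
Summed CPM of the markers of each cell type in each library (vertical axis, logarithmic above 1 and linear below it), for the control, 0.8 µg and 80 µg groups, with 1 dot per library. The CD4 T cell markers stand far above the rest in all libraries, and the CD8, gamma delta and NK sums of the 80 µg libraries lie below those of the 0.8 µg libraries. Only 1 NK marker was tested, and it was not called.

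Few genes of the other lists were called. Over all genes tested 0.89% rose and 0.673% fell, and on adjusted p alone 3.73% were higher and 2.2% lower. Of 33 genes of the T cell receptor complex and its proximal signalling, 0 were called, 5 were higher on adjusted p alone and the median was 0.11; Trac, the constant gene of the receptor alpha chain, had a log2 fold change of 0.59 (adjusted p = 2.1e-06), while Cd3e (0.10, adjusted p = 0.73) and Lck (0.14, adjusted p = 0.36) did not pass. Of 22 sterol synthesis genes 17 were negative (median -0.34) and 0 passed. Among 49 interferon response genes 2 rose, Ly6a and Ifi204, a member of a family of near-identical genes (log2 fold change 2.46 ± 0.72 (SE), DESeq2 adjusted p = 0.023), and the median was 0.10. Among 22 glycolysis genes the muscle-type enolase gene Eno3 fell (log2 fold change -1.11 ± 0.33 (SE), DESeq2 adjusted p = 0.021), while Aldoa (0.61 ± 0.13, adjusted p = 0.00022), Pkm (0.47 ± 0.11, adjusted p = 0.00067), Tpi1 (0.51 ± 0.15, adjusted p = 0.021) and Ldha (0.36 ± 0.12, adjusted p = 0.047) were higher by less than the threshold. Naive and quiescence genes gave 2 rises, Dapl1 (log2 fold change 1.56 ± 0.29 (SE), DESeq2 adjusted p = 1.4e-05) and Igfbp4 (log2 fold change 1.07 ± 0.23 (SE), DESeq2 adjusted p = 0.00020), and 2 falls, Sox4 and Zbtb20, among 31, and the naive factors Tcf7 (0.20 ± 0.12, adjusted p = 0.41) and Foxo1 (0.22 ± 0.11, adjusted p = 0.27) did not pass. Ifi204 lost its call without 0.8 µg replicate 1 or 3 (log2 fold change 2.13 to 2.22, adjusted p 0.082 to 0.36). Eno3 lost its call without 0.8 µg replicate 1 or 80 µg replicate 1 or 3 (log2 fold change -1.05 to -0.78, adjusted p 0.082 to 0.25) and without both Xist-high libraries (log2 fold change -0.72, adjusted p = 0.41). Igfbp4 lost its call without 0.8 µg replicate 1 or 2 or 80 µg replicate 2 (log2 fold change 0.79 to 0.95, adjusted p 0.0082 to 0.011) and without both Xist-high libraries (log2 fold change 0.91, adjusted p = 0.0032).

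**Figure D4:**
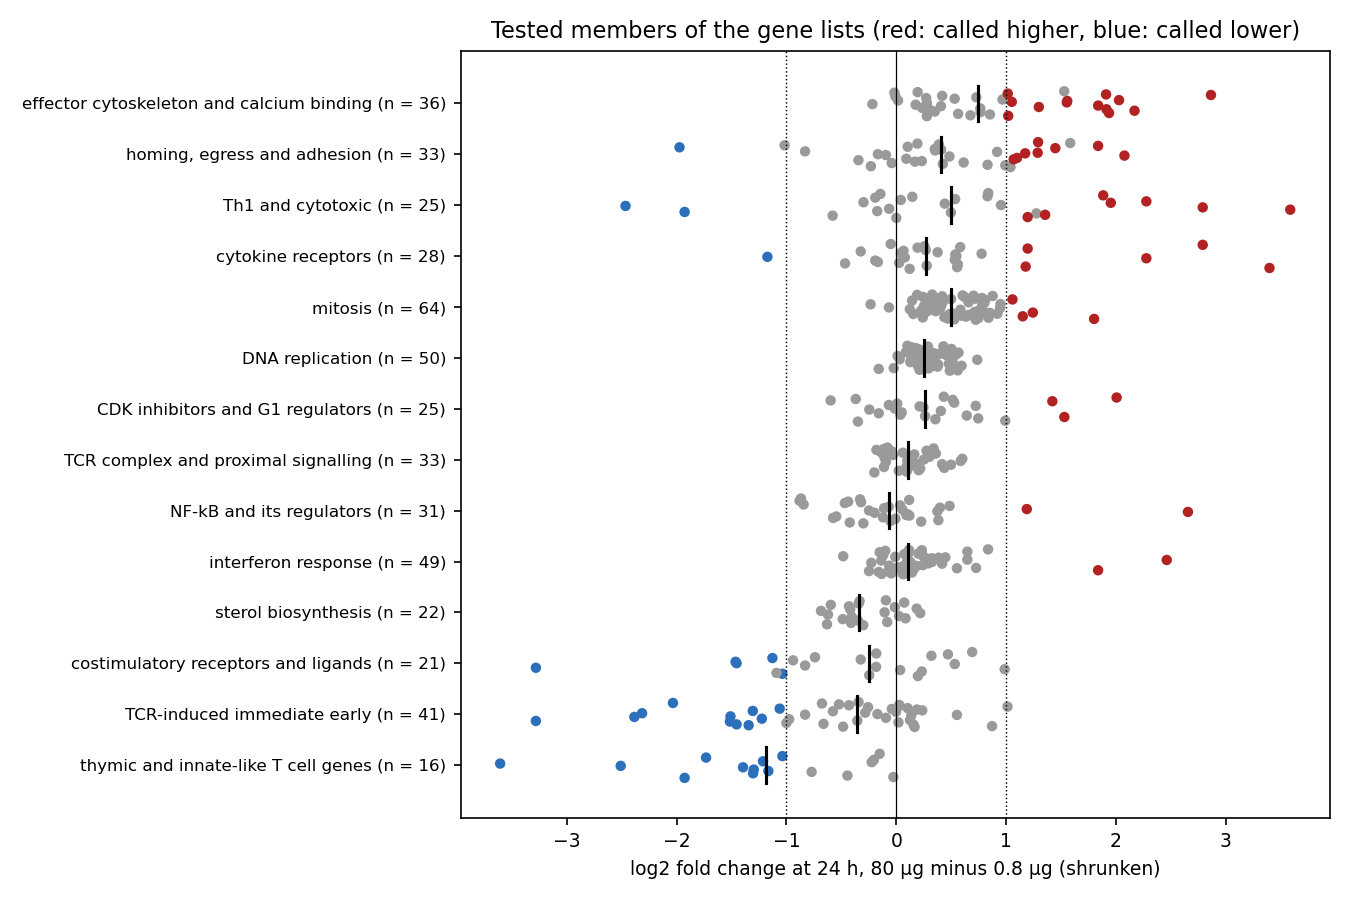
Shrunken log2 fold change at 24 h (horizontal axis) of every tested member of each gene list (1 row per list), with members that rose in red, members that fell in blue, a black bar at the list median and dotted lines at 1 and -1. Grey dots beyond the dotted lines are members that missed the adjusted p, and the list medians include 0.75 for the effector cytoskeleton and -1.19 for the thymic list.

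Of coinhibitory receptors 1 rose and 1 fell among 11, against 0.89% and 0.673% of all genes tested. Lair1, an inhibitory receptor for collagen, rose from 27.3, 20.5 and 10.3 to 74.5, 93.5 and 68.4 (log2 fold change 1.94 ± 0.43 (SE), DESeq2 adjusted p = 0.00062), and Cd160 fell. Pdcd1, encoding PD-1 (log2 fold change -0.41 ± 0.28 (SE), DESeq2 adjusted p = 0.51), and Ctla4 (log2 fold change 0.81 ± 0.45 (SE), DESeq2 adjusted p = 0.36) did not pass. Lag3 and Tigit, and the cytokine gene Il10, were too rarely counted for an adjusted p, with at most 8.10, 4.66 and 5.15 normalised counts in any of the 6 libraries. Of 15 genes of regulatory and type 1 regulatory T cells tested, 2 rose and 1 fell, and 11 were negative, with a median of -0.23. Capg and Il10ra were the genes that rose and Ikzf2 the gene that fell. The summed CPM of the list did not overlap, at 567 to 645 with 80 µg and 738 to 1236 with 0.8 µg. These sums include the abundant Ikzf2, with mean normalised counts of 584 with 80 µg and 1453.9 with 0.8 µg. Whether they would be separate without Ikzf2 was not tested. Foxp3, the defining factor of regulatory T cells, did not pass (log2 fold change -0.18 ± 0.45 (SE), DESeq2 adjusted p = 0.90). Further genes were named for the smallest adjusted p. Sidt1, encoding a multipass membrane protein of RNA transport, rose from 180.1, 211 and 282 to 556, 640.2 and 583 (log2 fold change 1.40 ± 0.16 (SE), DESeq2 adjusted p = 1.7e-14), and Ttc3, encoding a ubiquitin ligase, fell from 889, 762 and 966 to 459, 411 and 364 (log2 fold change -1.09 ± 0.12 (SE), DESeq2 adjusted p = 1.9e-16). Ttc3 lost its call without both Xist-high libraries (log2 fold change -0.99, adjusted p = 1.9e-08). Ugcg, encoding glucosylceramide synthase, came just under the threshold, at 497, 563 and 526 and 1065, 974 and 1107 (log2 fold change 0.98 ± 0.12 (SE), DESeq2 adjusted p = 2.1e-12). Atp1b3, a subunit of the sodium pump (log2 fold change 0.75 ± 0.10 (SE), DESeq2 adjusted p = 4.9e-12), and Spn, encoding the sialoprotein CD43 (log2 fold change 0.79 ± 0.11 (SE), DESeq2 adjusted p = 2.6e-11), were higher and Agfg1 lower (log2 fold change -0.69 ± 0.09 (SE), DESeq2 adjusted p = 4.0e-12), all with separate groups and by less than the threshold.

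Levels were also set beside those of the control libraries, which share no sample with the comparison. As their gate is not known, these are levels side by side only. Of the 86 genes that rose, the control mean was under both dose means in 32, between them in 35 and above both in 19. Of the 65 that fell it was under both in 13, between them in 29 and above both in 23. Atp2b4, encoding a calcium pump of the plasma membrane, had a control mean of 48.9 ± 13.02 and doses at 44.8, 53.2 and 85.7 and 258, 209.7 and 264 (log2 fold change 1.96 ± 0.29 (SE), DESeq2 adjusted p = 2.6e-09), so that 0.8 µg was near the control. Arl4c, named after its values were seen, had a control mean of 1189 ± 155 and doses at 206, 248 and 330.4 and 538, 599.8 and 553 (log2 fold change 1.10 ± 0.16 (SE), DESeq2 adjusted p = 1.6e-09), so that 80 µg was nearer to the control. Arl4c lost its call without 0.8 µg replicate 1 (log2 fold change 0.97, adjusted p = 1.4e-06) and without both Xist-high libraries (log2 fold change 0.97, adjusted p = 5.5e-05). In Ikzf2 and Lad1 the dose with the lower count, 80 µg, was the nearer to the control.

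The dose effect at 24 h was set beside those at 12 h and 4 h, where 311 of 11145 genes tested (2.79%) and 635 of 10848 (5.85%) were called. The shares called higher and lower at the larger dose were 1.83% and 0.960% at 12 h, against 3.12% and 2.74% at 4 h. The sorted gate changed with time, so that time and gate cannot be told apart. Of the 86 genes that rose at 24 h, 30 were called higher at 12 h and 34 at 4 h, 22 at all 3 times, and 43 at 24 h alone. Of the 65 that fell, 22 were called lower at 12 h and 19 at 4 h, 12 at all 3 times, and 35 at 24 h alone. Among the 22 were Tbx21, Il12rb2, Maf, Malt1, Neb, Ly6a and Ly6c1, and among the 12 Lad1, Eomes, Cd160, Tnfrsf9 and Egr1. A call at 24 h alone does not show that the dose effect differed, so the difference between times was tested itself. The dose effect at 24 h differed from that at 12 h in 255 of 9663 genes (2.64%) and from that at 4 h in 800 of 11145 (7.18%) at an adjusted p under 0.05 in DESeq2. Against 12 h it was further toward 80 µg in 1.46% and toward 0.8 µg in 1.18%, and against 4 h in 4.04% and 3.14%. Of the 86 genes that rose, 10 differed from 12 h, 27 from 4 h and 4 from both. Of the 65 that fell, 11, 19 and 6 did.

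Some effects turned around with time. In this and the next paragraph the effects are shrunken and the differences between times are not, so a difference can depart from the gap between the effects beside it. Gata3, encoding the transcription factor of Th2 cells, had a log2 fold change of -2.33 at 12 h and -1.59 at 4 h but of 0.60 at 24 h (SE 0.14, adjusted p = 0.0016), where it had 262, 342 and 320.0 with 0.8 µg and 483, 466 and 452 with 80 µg. Its 24 h effect differed from that at 12 h by 2.95 ± 0.22 (SE, adjusted p = 1.4e-36) and from that at 4 h by 2.20 ± 0.21 (adjusted p = 2.8e-22). Irf4, encoding a factor whose level follows receptor signal strength, went from 1.58 at 4 h and 1.01 at 12 h to -0.66 at 24 h. The difference from 12 h was -1.69 (adjusted p = 1.3e-09). Egr2 went from 1.00 and 1.63 to -2.03, a difference from 12 h of -3.97 (adjusted p = 7.3e-07), and was the only gene called in opposite directions at 24 h and at both other times. Mir155hg fell at 24 h (-1.51), whereas its values of 0.21 at 4 h and 0.39 at 12 h did not pass the test (adjusted p = 0.36 and 0.096), with a difference from 12 h of -1.94 (adjusted p = 4.1e-10).

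In other genes the dose effect appeared or shrank by 24 h. Crip1 had effects of 0.01 at 4 h, 0.62 at 12 h and 1.84 at 24 h, and the last differed from each of the others (adjusted p = 2.6e-11 and 2.4e-05). Vim had 0.62, 1.98 and 2.03, differing from 4 h (adjusted p = 8.4e-05) with an adjusted p of 0.98 against 12 h. Gzmb had 4.61, 1.02 and 3.59, with a difference from 12 h of 2.74 ± 0.68 (adjusted p = 0.0054). Malt1 went the other way, with 3.66, 2.71 and 1.19, and its 24 h effect was smaller than those at 4 h and 12 h (adjusted p = 4.2e-17 and 8.9e-06). Icos had 2.27, 1.76 and 0.69, and its 24 h effect was also smaller than both (adjusted p = 9.1e-08 and 0.0033).

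**Figure D5:**
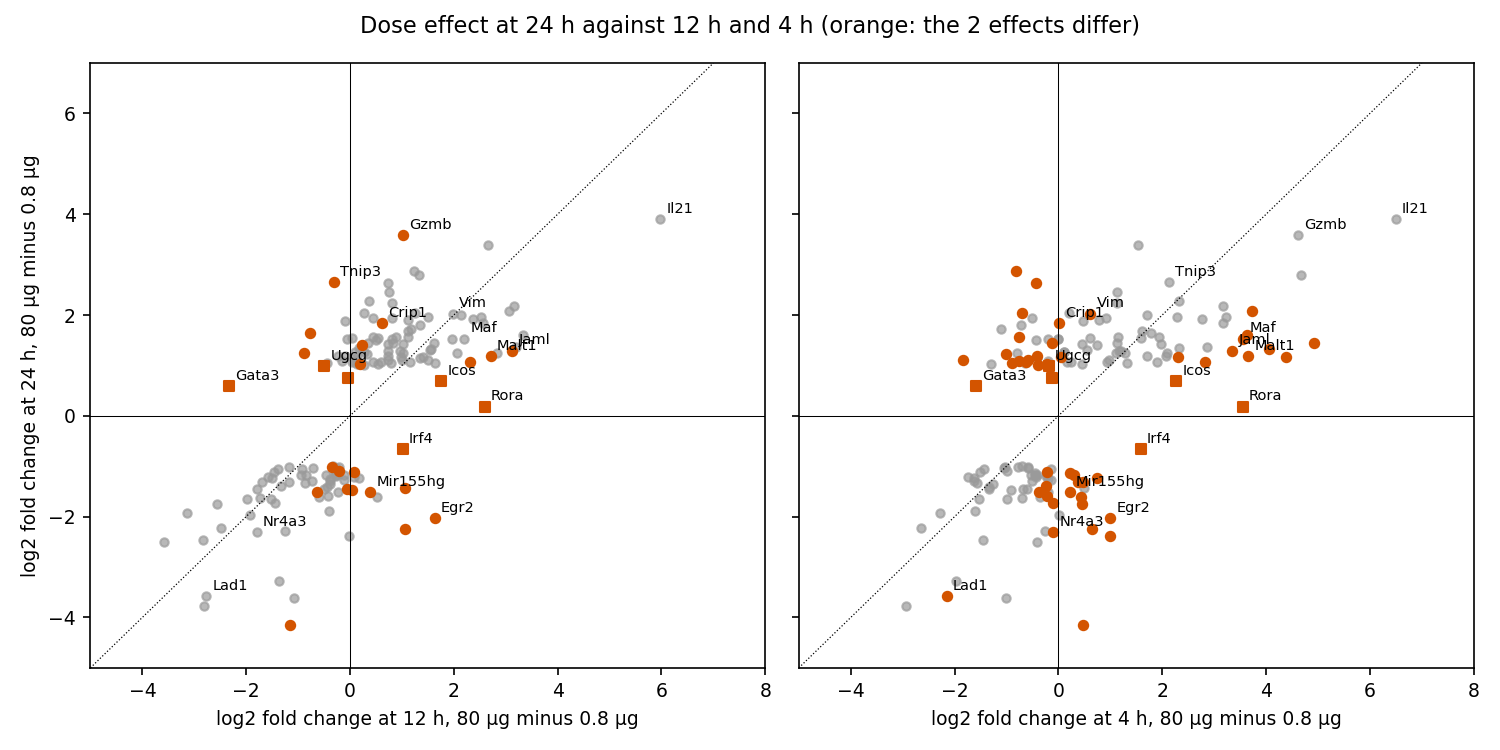
Shrunken log2 dose effect at 24 h (vertical axes) against that at 12 h and at 4 h (horizontal axes), 1 circle per gene called at 24 h and squares for Gata3, Irf4, Icos, Ugcg, Atp1b3 and Rora, which were not called. Orange marks genes whose dose effects differed between the times at an adjusted p under 0.05, and Gata3 and Egr2 lie on the other side of 0 at 24 h.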

How the data were processed

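RNA of sorted splenic CD4+ T cells from 21 mice, in 7 groups of 3, was made into QuantSeq forward libraries, which read the 3′ end of mRNA. The authors trimmed reads with Bbduk, aligned them to mm10 (GRCm38) with STAR 2.5.2a and counted them per gene with HTSeq; annotation release and strand setting are not given in the sources used here. The deposited count table holds raw counts of 47643 genes, and a second deposited table holds log2 values from the regularised log of DESeq2 for 15249 genes, which were recomputed from the counts with a median absolute difference of 1.71e-12 and used for gene symbols.

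Counts were fitted in DESeq2 1.42.0 (R 4.3.3) over all 21 libraries with group as the factor, keeping 15300 genes with at least 10 counts in total. The 24 h doses were compared by a Wald test with shrinkage under a normal prior, and 9663 genes passed independent filtering. Genes were called at an adjusted p (Benjamini-Hochberg) under 0.05 and a log2 fold change beyond 1. Differences between dose effects were tested as contrasts of the same fit. Where a group had 0 counts, the ratio was taken against 3 counts over the group, and with 1 to 3 counts it was given with an exact binomial counting interval of 95%. Fits were tested on simulated data. Alternatives used edgeR 4.0.16 (quasi-likelihood test), other filters, thresholds and sets of libraries, unshrunken values, thinned depth and a replicate block. P-values measure the spread between mice.

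Genes were named as the 15 largest rises and 15 largest falls with a mean of at least 20 and no overlap, the 10 further genes of smallest adjusted p, the gene lists, and the genes of a module table of the study; others are marked, and some genes are not reported here. The members and lists were chosen with earlier results of these data known. Positions are those of GENCODE for GRCm38, by which 144 of the 151 genes called are protein coding and 50 have exons that overlap those of another gene, 42 of them on the opposite strand. Promoter and microRNA sequences are from RefSeq (GRCm38.p6).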

Additional observations from a re-analysis of the deposited data

Results flagged for a closer look

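For 75 of the 146 genes named above and compared across times, the effect of dose at 24 h differed from that at 12 h (28 genes), at 4 h (64 genes) or at both (17 genes) at an adjusted p under 0.05 in DESeq2, each difference being tested itself. Over all genes tested, 2.64% differed from 12 h and 7.18% from 4 h, but the genes named were chosen in part for large effects at 24 h, so their share is not comparable. The values below are unshrunken differences of log2 fold changes, the effect at 24 h minus that at the earlier time, so that a positive value means an effect further toward 80 µg at 24 h. The sorted gate differed between the times, so time and gate cannot be told apart for any of them. With 3 libraries a group, no search for single outlying libraries was made, and no signal outside the count table was used.

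Against 12 h the effect at 24 h was further toward 80 µg in 12 genes. Among lineage and effector genes the difference was 2.95 for Gata3, 2.74 for Gzmb, 1.18 for Stat4, 0.73 for Runx3 and 0.88 for Tcf7. Of these 5, only Gata3 passed the test at both times, lower at 12 h and higher at 24 h. Stat4, Runx3 and Gzmb passed at 24 h, as higher, but not at 12 h (-0.33, -0.19 and 1.02, with adjusted p of 0.37, 0.56 and 0.16), and Tcf7 passed at 12 h, as lower, but not at 24 h (0.20, adjusted p = 0.41). The difference was 3.37 for Tnip3, 1.22 for Crip1, 0.88 for S100a10 and 0.76 for Anxa6. The membrane and lipid genes Ugcg, Sidt1 and Atp1b3 had 1.49, 1.16 and 0.79.

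It was further toward 0.8 µg than at 12 h in 16 genes. For genes of receptor signalling the difference was -3.97 for Egr2, -1.94 for Mir155hg, -1.69 for Irf4, -1.54 for Malt1 and -0.90 for Gadd45b. For the costimulatory and inhibitory genes Icos, Lta and Pdcd1 it was -1.08, -1.53 and -1.35. Egr2 and Irf4 passed the test at both times, higher at 12 h and lower at 24 h, and Icos and Malt1 passed as higher at both. Pdcd1 was higher at 12 h and did not pass at 24 h (-0.41, adjusted p = 0.51), while Mir155hg and Lta were lower at 24 h and did not pass at 12 h (0.39 and 0.04, with adjusted p of 0.096 and 0.96). The cell cycle and survival genes Rrm2, Trp53 and Bcl2l11 had -1.30, -0.79 and -0.69. For Rora, which encodes a nuclear receptor, and for Jaml, Igfbp4 and Ttc3 the difference was -2.58, -1.91, -1.26 and -0.88. Pdzk1ip1 had -5.44 against 12 h and -7.17 against 4 h, fitted values that rest on 0 counts with 80 µg at 24 h and give no bound.

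Against 4 h the effect at 24 h was further toward 80 µg in 28 genes. Among cytoskeletal and calcium-binding genes the difference was 4.22 for Pdlim4, 2.06 for Capg, 1.83 for Crip1, 1.44 for Inf2, 1.42 for Flna and 1.38 for Vim. Anxa5 had 1.06, Anxa6 1.48 and S100a13 1.33. The difference from 12 h passed the test in Crip1 and Anxa6 of these 9. Surface and adhesion genes had 1.72 for Itgb7, 1.81 for S1pr4, 1.51 for Spn, 1.11 for Selplg and 3.57 for Plac8. The T cell receptor and costimulatory genes Lck, Cd3e and Cd28 had 1.23, 1.13 and 1.07, and all 3 were lower at 4 h on adjusted p. For the transcription factors Gata3, Tcf7 and Runx3 the difference was 2.20, 1.60 and 0.69. Gata3 and Tcf7 were lower at 4 h on adjusted p, and Runx3 did not pass there (-0.15, adjusted p = 0.63). The cell cycle genes Ccnd3, Rpa1 and Cdt1 had 1.69, 0.93 and 0.76. Arl4c had 3.39 and Dapl1 2.41. The difference was 1.18 for Ugcg, 0.88 for Atp1b3 and 0.56 for Aldoa.

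It was further toward 0.8 µg than at 4 h in 36 genes. Immediate early and signalling genes had -3.30 for Egr2, -2.40 for Nr4a3, -1.59 for Nr4a2, -2.26 for Irf4, -1.86 for Sik1, -4.11 for Rgs16, -1.76 for Mir155hg, -1.16 for Gadd45b and -0.68 for Cd69. At 24 h these genes were lower on adjusted p, except Nr4a2, which did not pass (-0.68, adjusted p = 0.46). At 4 h Egr2, Irf4 and Nr4a2 were higher on adjusted p and the others did not pass, with values that ran from -0.37 for Gadd45b to 1.58 for Irf4. NF-kB pathway genes had -2.49 for Malt1, -0.91 for Relb, -0.78 for Nfkb1 and -0.73 for Nfkbia. Cytokine and cytokine receptor genes had -4.48 for Ifng, -3.46 for Il2, -1.41 for Il2ra, -1.38 for Il7r and -2.93 for Socs3. All 5 were higher at 4 h on adjusted p, while at 24 h only Socs3 passed, as higher. Costimulatory and regulatory genes had -5.81 for Ctla4, -1.59 for Icos and -2.42 for Foxp3.

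Among transcription factors the difference from 4 h was -3.60 for Rora, -2.30 for Stat4, -2.12 for Maf, -1.05 for Foxo1, -1.70 for Ikzf2, -1.66 for Sox4 and -1.17 for Tox. Stat4 and Maf were higher with 80 µg on adjusted p at both times. Ikzf2, Sox4 and Tox fell at 24 h and did not pass at 4 h, with 0.38, -0.10 and -0.23 and adjusted p of 0.36, 0.87 and 0.51. The surface genes Jaml, Ly6c1 and Ccr7 had -2.17, -1.72 and -0.96. For Lad1 and Agfg1 the difference was -1.55 and -0.98. Apoe and Car2, which are markers of other cells, had -1.43 and -2.44.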

How the results depend on the processing

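The fit described above called 151 genes at 24 h, 57% of them higher with 80 µg, and found 255 and 800 genes whose dose effect at 24 h differed from that at 12 h and at 4 h. Leaving out 1 library at a time gave 122 to 157, 194 to 311 and 640 to 780. The 24 h count was 83 with DESeq2 on the 6 libraries of 24 h alone, 39 in a Wald test against 0.5, 573 on adjusted p alone and 100 (48 higher, 52 lower) without both Xist-high libraries, where the 12 h difference count was 157. The cause of these shifts was not tested. The 24 h count was 172 and 201 with edgeR on all libraries and on those of 24 h, 155 unshrunken, 157 with no filter, 173 with a stricter filter, 137 thinned to the smallest total and 151 without Gm42418, mt-Rnr1 and mt-Rnr2. The share higher was 67.9% without 0.8 µg replicate 3.

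The labels do not say whether a replicate number marks a shared batch. Deviations of same-numbered libraries correlated at -0.0888, 0.0672 and -0.101 over 8720 genes, and not every library correlated best with its own number. The highest value, 0.233, was between the Xist-high libraries, 80 µg replicate 3 and 0.8 µg replicate 1. As these carry different numbers, the check cannot settle whether numbers pair the mice. With replicate number as a block the 24 h count was 138 over all libraries, and 56 (67.9% higher) over the 6 of 24 h, and the difference counts were 212 and 747.

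Of the 151 calls, 141 were shared with edgeR on all libraries, 71 with the 6-library DESeq2 fit, 52 with the 6-library block and 74 with the fit without both Xist-high libraries, in which 46 had no adjusted p. The 11 falls among immediate early genes became 6 in both 6-library DESeq2 fits, and the 10 among thymic and innate-like genes 6, and 4 with the block. The 8 homing rises became 4, and 3 with the block, and the 5 cytokine receptor rises 3, and 2 with the block. With the block the 13 effector cytoskeleton rises became 8, the 7 Th1 rises 4, the 5 costimulatory falls 2 and the 4 mitosis rises 2. With edgeR on the 6 libraries the rises were 14 for effector cytoskeleton, 8 for Th1, 9 for homing, 5 for cytokine receptor and 4 for mitosis genes. The falls were 10 for immediate early, 10 for thymic and innate-like and 5 for costimulatory genes. Without both Xist-high libraries the Th1 rises were 3, those of cytokine receptors 1 and those of mitosis genes 1.

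Of 104 named genes called, 36 were called wherever an adjusted p was given over 17 of the settings (not counting adjusted p alone and the Wald test against 0.5, which kept 37 of all 151 calls), and 0 changed sign in those. Signs changed in 5 genes that had not passed. Leaving out 1 library at a time, Il2 ranged from -0.53 to 0.36 (0.36 without 0.8 µg replicate 3 and 0.20 without 80 µg replicate 3), Rasgrp1, a list gene not described above, from -0.18 to 0.021 (without 0.8 µg replicate 3), and Rora from -0.056 (without 0.8 µg replicate 1) to 0.46. Without both Xist-high libraries Rora had -0.10 and Nab1 -0.0017. S100a4 ranged from -0.36 to 0.11, with 0.11 and 0.071 without 0.8 µg replicate 2 or 3, 0.097 and 0.063 without 80 µg replicate 2 or 3, and 0.0018 thinned. Where a group is left with 2 libraries it is taken to vary like the other groups. Depth limits the genes under about 20 normalised counts, and 71 values of called genes had no adjusted p in an alternative.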
